A study of Homo sapiens with 6 samples.

Results

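The genes described here are 9 components and regulators of complement: C1R, C1S, C3, C5, CFB, CFI, CD46, CD55 and CD59. They were chosen by gene name with earlier results of the same comparison in view, including the difference in C1S, so their differences are given as a description and not as a test. All probe sets annotated to 1 of these genes alone were taken, which gave 20 of the 54613 probe sets on the array that are not controls, and 9 of the 19775 genes with a probe set of their own. Of these, 19 were bright enough to enter the fit of 27618 probe sets.

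The arrays came from NCI-H292, a human lung cancer line of mucoepidermoid origin. One group, CT45A1 overexpression, had been stably transfected with CT45A1 joined to the fluorescent protein Venus. The other, CT45A1 negative, carried the Venus vector, so transfection and Venus were common to both. The product of CT45A1 belongs to the cancer/testis antigens, which are found mainly in testis and in some tumours. Both groups grew in the same serum-containing medium, and each had 3 replicates on 1 array each. The labels do not say whether the lines were clones or pools, or whether replicates were separate cultures. Errors thus cover no more than differences between arrays, and they come from a model that also borrows spread from all fitted probe sets. Each probe set has 1 linear MAS5 signal per array, and each difference given is overexpression minus negative in log2 units.

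Complement is a cascade of blood and tissue proteases that marks surfaces for removal and can perforate membranes. In the classical pathway the recognition protein C1q activates the protease C1r, which cleaves C1s, and C1s goes on to cleave C4 and C2. All routes meet at C3, which factor B amplifies through the alternative pathway, and end with C5 and the membrane attack complex. Host cells limit the cascade with factor I, a protease in plasma, and with the membrane proteins CD46, CD55 and CD59. The liver makes most circulating complement, while airway epithelium is a known local source, and cytokines including interferons raise the expression of several of these genes.

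The labels and the cell type were checked first. Both CT45 probe sets, each annotated to 9 CT45 genes, had signals of 154 to 700.1 on the overexpression arrays and 1.95 to 36.3 on the negative ones. All 12 epithelial markers entered the fit, 0 rose and 1, KRT18, fell, and their summed signal was 89073 to 90288.5 with CT45A1 and 91524 to 95272 without it. In contrast, PTPRC and ALB, which define leukocytes and hepatocytes, lay below the array median on all 6 arrays. Of the 7 leukocyte, 7 fibroblast, 7 hepatocyte and 5 endothelial markers on the array, 1, 0, 1 and 2 entered the fit. Their summed signals on the overexpression and negative arrays were 448 to 507 and 308 to 457 for leukocytes, 216 to 315 and 141 to 224 for fibroblasts, 210.2 to 299 and 229.9 to 379.6 for hepatocytes, and 379.6 to 466 and 283 to 354 for endothelium. The 7 mucous cell markers summed to 4864 to 4992 with CT45A1 and 3553 to 4319.7 without it, and the part of these shifts in the results was not tested. Array medians were 79.2 to 83.3 in the overexpression group and 72.6 to 75.6 in the negative group. For actin, the 3' probe set over the 5' one, which grows as RNA degrades, gave 1.42, 1.49 and 1.55 for overexpression replicates 1 to 3. The same ratio was 1.70, 1.64 and 1.91 for negative replicates 1 to 3.

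The comparison asked how complement transcripts differed between cells with and without the CT45A1 construct. The mean signals of the proteases C1S and C1R, factor I and factor B were higher with CT45A1 by 1.65-fold to 2.58-fold. The mean signals of C3 and the membrane regulator CD55 were higher by 1.20-fold to 1.51-fold and those of CD46 by 1.05-fold to 1.23-fold, while C5 and most probe sets of CD59 had values slightly below those of the control. At an adjusted p under 0.05 in limma, adjusted over all probe sets, 4 of the 19 member probe sets were called, all higher with CT45A1. These were both C1S probe sets, the C1R probe set and 1 of 3 for CD55. Over all 27618 probe sets 3.23% were called, and 1.89% were called as higher. An unadjusted p under 0.05 in limma was found for 12 of the 19 and for 20.7% of all. The 12 included CD59 at 200985_s_at, the only one of them that was lower with CT45A1. In 9 of the 19 the overexpression arrays all lay above the negative arrays, while 26.6% of all probe sets had groups that did not overlap in either direction. The median difference was 0.29 over the 19 and 0.03 over all probe sets tested. Because the members were chosen with this contrast known, nothing is read from these shares. In RNA of whole cultures, fewer cells expressing a gene and less RNA per cell cannot be told apart.

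**Figure D1:**
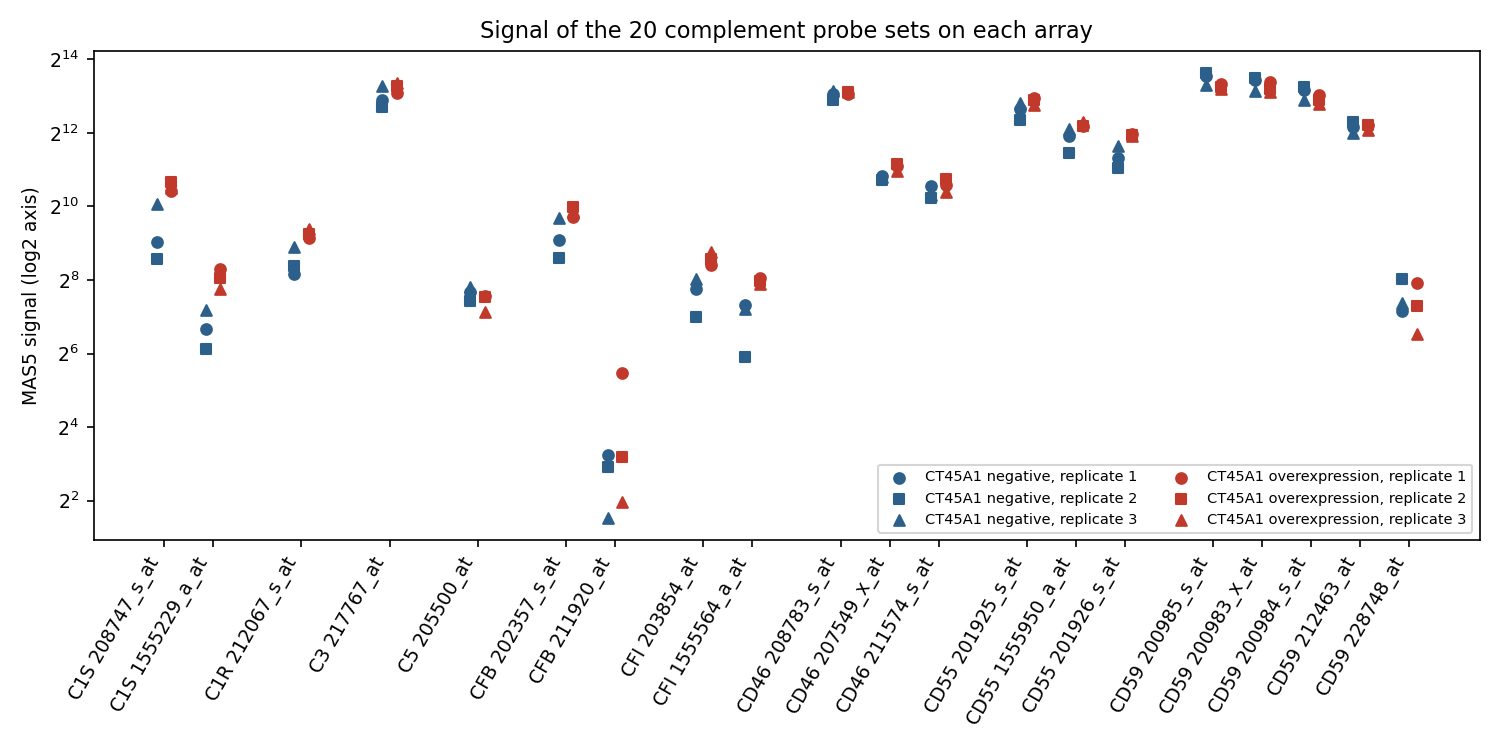
MAS5 signal (log2 axis) of the 20 complement probe sets on each of the 6 arrays, by gene and probe set. Blue marks are CT45A1 negative, red marks CT45A1 overexpression, and the marker shape gives the replicate. The C1S marks of the 2 groups do not overlap, negative replicate 3 lies closest to the overexpression arrays for C1S, C1R and CFB, and the second CFB probe set is dim on every array.

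C1R and C1S form the catalytic pair of the first complement component. C1S had the largest mean difference of the 9 genes. Its brighter probe set, 208747_s_at, gave signals of 1359, 1634 and 1440.1 for the overexpression arrays against 525, 381 and 1071 for the negative arrays. These and all later signals are listed in the order of replicates 1, 2 and 3. The lowest overexpression array thus lay above the highest negative one, and negative replicate 3 stood well above its fellows. The difference was 1.30 (SE 0.29, n = 3 per group), or 2.46-fold, with a 95% interval of 0.66 to 1.95. Standard deviations of the log2 signals were 0.14 in the overexpression group and 0.76 in the negative group.

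The other C1S probe set, 1555229_a_at, gave 315, 265 and 214 against 101, 70.2 and 146. Here too the groups did not overlap, although negative replicate 2 lay below its array's median of 72.9. The difference was 1.37 (SE 0.28), or 2.58-fold, so both probe sets of the gene gave differences of like size. The suffix _s_at marks a set whose probes can match several transcripts, and _a_at one that matches several transcripts of 1 gene.

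C1R had a single probe set, 212067_s_at. Its signals were 563, 609 and 663 with CT45A1 and 287, 333 and 478 without it. All overexpression arrays exceeded all negative arrays, and the difference was 0.77 (SE 0.18), or 1.71-fold.

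In the RefSeq gene order of GRCh38.p14, C1S, C1R and C1RL are consecutive protein-coding genes on chromosome 12. C1RL encodes a protease related to C1R and lies outside the 9 genes, but the list it stands on was also drawn up with results of these data known, so its p is no independent test. Its signals were 626, 701 and 636 with CT45A1 and 484, 435 and 502 without it, with no overlap. C1RL rose by 0.47 (SE 0.11, limma adjusted p = 0.0468). Its other probe set, near the array median in the negative group, differed by 0.85 (SE 0.42, limma adjusted p = 0.280). The call for C1RL was close to the threshold: over 16 alternative settings its adjusted p ranged from 0.0376 to 0.185, and it passed in 4 of them. Leaving out negative replicate 3 kept the call (limma adjusted p = 0.0449), and leaving out any other single array ended it. Related sequences of C1R, C1S and C1RL could share probes, and probe sequences were not used here.

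The genes beside this trio were looked up after those values had been seen. On the C1S side, LPCAT3, a lysophospholipid acyltransferase, differed by 0.0001 (SE 0.16) and PHB2, a mitochondrial prohibitin, by -0.02 (SE 0.07). EMG1, a ribosome biogenesis methyltransferase, differed by -0.27 (SE 0.07, limma adjusted p = 0.0564). On the C1RL side RBP5 was too dim to test, CLSTN3 differed by 0.22 (SE 0.21) and PEX5 by -0.22 (SE 0.09). None of these 5 tested neighbours was called, too few genes to set against the 3.23% called over all probe sets. Of them, 2, EMG1 and PEX5, had 95% intervals below 0, from -0.42 to -0.12 and from -0.43 to -0.02. Around CFB on chromosome 6, the tested neighbours EHMT2, SKIC2 and DXO differed by 0.73 (SE 0.23), 0.38 (SE 0.22) and -0.02 (SE 0.15), none of them called.

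**Figure D2:**
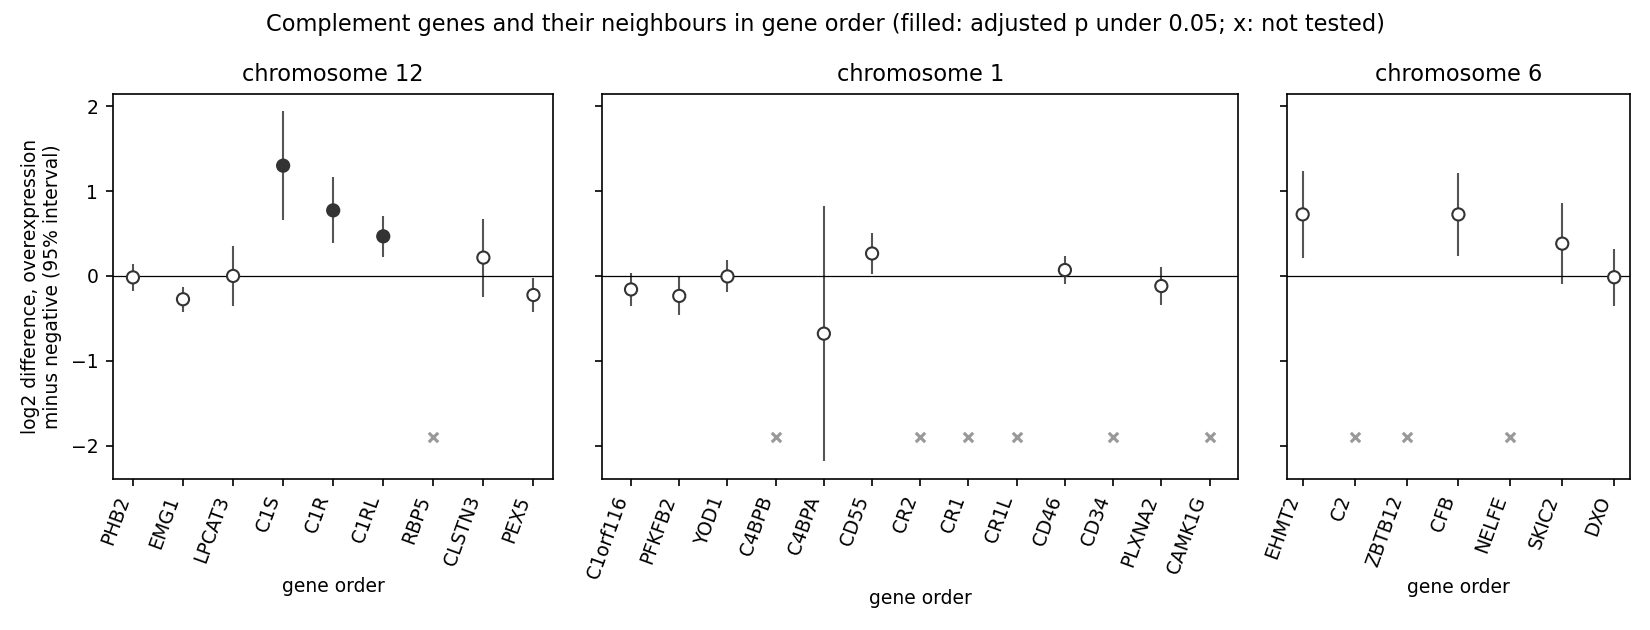
log2 difference (overexpression minus negative, vertical axis) with 95% intervals from limma for complement genes and their neighbours in gene order, by the brightest tested probe set; filled points had an adjusted p under 0.05 and crosses mark genes that were not tested. The 3 consecutive filled points on chromosome 12 are C1S, C1R and C1RL, and their tested neighbours on that chromosome lie near or below 0 except CLSTN3 at 0.22.

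No promoter window of C1S or C3 was used here. The windows of C1R and CFB are shown because their mean signals were higher with CT45A1, CFB without a call. The second C1R window and the CFB window also hold matches to cytokine response motifs. As they were picked for these traits, they show no link between motif and difference. Each runs from 250 bases before to 50 after a RefSeq start in GRCh38.p14, 5' to 3' on the gene's strand, and capitals mark motif matches. C1R has 2 annotated starts, at chr12:7092396-7092695 (minus strand) and chr12:7091844-7092143 (minus strand), and the CFB window is chr6:31945845-31946144 (plus strand).
C1R, first window: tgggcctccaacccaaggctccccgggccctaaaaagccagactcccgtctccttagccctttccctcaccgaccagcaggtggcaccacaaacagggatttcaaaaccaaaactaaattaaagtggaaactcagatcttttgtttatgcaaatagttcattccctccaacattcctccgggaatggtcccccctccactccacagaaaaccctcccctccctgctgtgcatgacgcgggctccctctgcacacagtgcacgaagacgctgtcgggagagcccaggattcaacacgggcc
C1R, second window: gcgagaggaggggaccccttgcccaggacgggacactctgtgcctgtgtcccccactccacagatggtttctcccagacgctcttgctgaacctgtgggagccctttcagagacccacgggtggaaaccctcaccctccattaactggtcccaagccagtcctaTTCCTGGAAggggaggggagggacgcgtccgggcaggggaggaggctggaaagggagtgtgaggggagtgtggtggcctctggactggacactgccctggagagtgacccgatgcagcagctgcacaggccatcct
CFB: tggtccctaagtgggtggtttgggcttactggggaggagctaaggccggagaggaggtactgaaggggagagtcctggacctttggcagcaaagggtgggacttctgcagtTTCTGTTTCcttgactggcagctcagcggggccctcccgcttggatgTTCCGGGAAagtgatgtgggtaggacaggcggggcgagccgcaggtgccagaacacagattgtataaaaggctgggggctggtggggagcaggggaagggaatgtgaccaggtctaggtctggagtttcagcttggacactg

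Short motifs were searched on both strands. The interferon response element core GAAANNGAA was found in 8.10% of 34943 promoter windows of this length, the STAT site TTCNNNGAA in 7.66%, the NF-kB site GGGNNTTCC in 6.57%, the AP-1 site TGANTCA in 7.72% and the cyclic AMP element TGACGTCA in 1.84%. CFB held an interferon core on the minus strand, read as TTCTGTTTC at position -139 from the start, and a STAT match, TTCCGGGAA, at position -92. The 2 do not overlap. The second C1R window held a STAT match, TTCCTGGAA, at position -86, and the first held none of them. The windows of CFI, CD55, CD46 and C5 held none, and those of CD59 held matches in 3 of 4: TTCTCAGAA, 1 STAT match that overlapping windows share, and 3 AP-1 matches in another window. A match is a description of letters and not evidence of binding.

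C3 is the component on which all activation routes meet, and CFB supplies the protease that amplifies its cleavage. C3 was bright, with signals of 8655, 9939.8 and 10424 against 7528, 6640.4 and 9849. Negative replicate 3 lay within the overexpression range, so the groups overlapped. The difference was 0.29 (SE 0.13), or 1.22-fold, and was not called. It was 0.16 without negative replicate 2, and 0.45 and called without negative replicate 3.

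CFB, encoding factor B, had signals of 839, 1019.6 and 929 against 543, 391 and 827 at 202357_s_at. The groups did not overlap, but the highest negative array came within a small margin of the lowest overexpression array. The difference of 0.73 (SE 0.22), or 1.65-fold, was not called. It was 0.47 without negative replicate 2, and 1.01 and called without negative replicate 3. The other CFB probe set, 211920_at, gave 44.1, 9.09 and 3.88 against 9.52, 7.48 and 2.90, below the array median on all 6 arrays, and was not tested.

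C5, whose cleavage starts the terminal pathway, was the only terminal component bright enough to test. Its signals were 189.8, 186 and 141 with CT45A1 and 205, 172 and 224 without it. The groups overlapped, and the difference was -0.22 (SE 0.20) with a 95% interval of -0.66 to 0.21. None of the other 6 terminal genes, C6 to C9, entered the fit. The same was true of C1QA, C1QB, C1QC and C2.

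Factor I, encoded by CFI, inactivates the C3 and C4 fragments that drive the cascade, and needs a cofactor such as CD46. At 203854_at its signals were 338, 379 and 434 with CT45A1 and 214, 128 and 260.1 without it. At 1555564_a_at they were 266, 249 and 238 against 159.6, 60.4 and 149. The groups did not overlap at either, and negative replicate 2 was lowest at both. The differences were 0.99 (SE 0.24) and 1.15 (SE 0.33), or 1.98-fold and 2.22-fold, and neither was called. The first lay just outside the threshold and was called in 5 of 15 alternative settings. Without negative replicate 2 the differences were 0.69 and 0.70.

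Of the membrane regulators, 1 of 3 probe sets of CD55 was called and none of CD46 or CD59, and differences between these genes were not tested. CD55, or decay-accelerating factor, is held by a glycolipid anchor and takes apart the C3 and C5 convertases. At 201926_s_at it gave 3983, 3925 and 3844 against 2544, 2115 and 3216, a difference of 0.60 (SE 0.13), or 1.51-fold, with groups that did not overlap. At 1555950_a_at it gave 4665, 4641 and 5063 against 3849, 2813 and 4412, a difference of 0.40 (SE 0.14). At 201925_s_at, the brightest, it gave 7938, 7661 and 6905 against 6382, 5248 and 7226, a difference of 0.26 (SE 0.11). All 3 differences were positive, only the first was called, and only the third had overlapping groups. Without negative replicate 2 they were 0.45, 0.22 and 0.14, with none called.

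CD46 is a transmembrane cofactor for factor I. The brightest probe set, 208783_s_at, gave 8522, 8800.1 and 8873 with CT45A1 and 8423, 7545 and 9055 without it. The overexpression arrays lay inside the negative range, and the difference was 0.07 (SE 0.07) with a 95% interval of -0.09 to 0.23. Its 2 other probe sets differed by 0.30 (SE 0.08), with no overlap, and 0.20 (SE 0.11). The first of these, 207549_x_at, can match other transcripts, and none of the 3 was called.

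CD59 carries the same kind of anchor as CD55 and blocks assembly of the membrane attack complex. At its brightest probe set, 200985_s_at, signals were 10334, 9612 and 9381 with CT45A1 and 11978, 12629 and 10168 without it. Overexpression replicate 1 exceeded negative replicate 3, so the groups overlapped, and the difference was -0.24 (SE 0.08). The 4 other probe sets differed by -0.28 (SE 0.34) to 0.02 (SE 0.08). None of the 5 was called, and 200983_x_at and 200984_s_at gave -0.12 (SE 0.10) and -0.20 (SE 0.10). In other settings some were called as lower. For 200985_s_at this was after centring each array on its median (-0.39), with the actin ratio as a covariate (-0.56) and without negative replicate 3 (-0.33). For 200984_s_at it was after centring and with the actin ratio, and for 200983_x_at with the actin ratio.

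**Figure D3:**
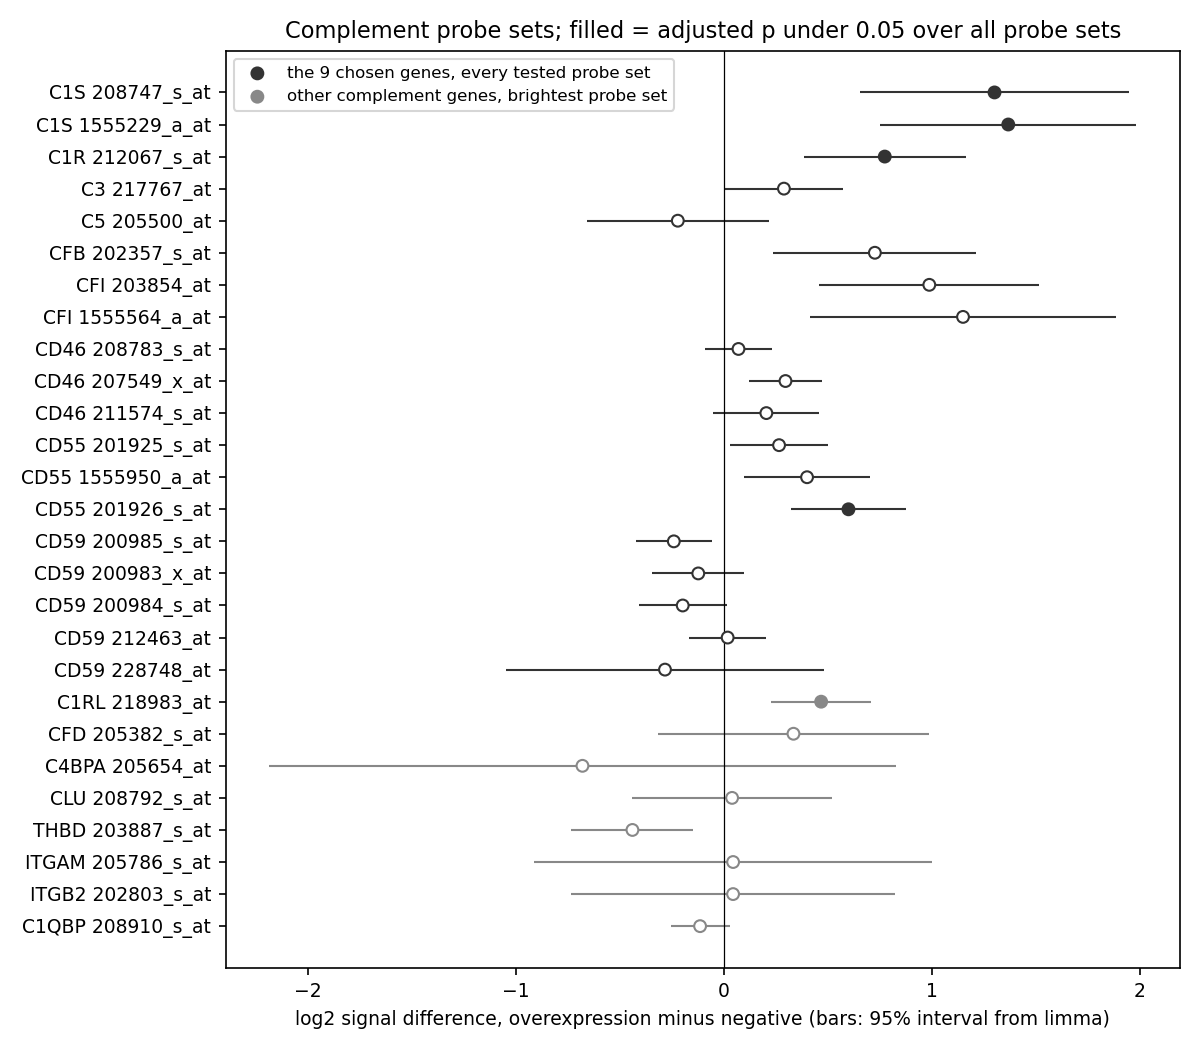
log2 difference (overexpression minus negative, horizontal axis) with 95% intervals from limma for the 19 tested probe sets of the chosen genes (black) and for 8 other complement genes by their brightest probe set (grey); filled points had an adjusted p under 0.05 over all probe sets. C1S lies farthest to the right at 1.30 and 1.37, the 3 CD55 points lie between 0.26 and 0.60, and 4 of the 5 CD59 points lie left of 0.

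The negative arrays were not alike for these genes. Among the 3 negative arrays, replicate 2 was lowest and replicate 3 highest at 10 of the 14 tested probe sets of genes other than CD59, an order found in 18.4% of all probe sets. At 4 of the 5 CD59 probe sets the order was turned round, with replicate 2 highest and replicate 3 lowest, which 17.8% of all probe sets showed. The range over the negative arrays exceeded that over the overexpression arrays at 15 of the 19, and at 55.3% of all. For the brighter C1S probe set these ranges were 1.49 and 0.27. The order was noticed in the data and the probe sets of a gene share their target, so the counts are a description. The actin ratio had the same order among the negative arrays, with replicate 2 lowest and replicate 3 highest. Between the groups, it was higher on every negative array than on any overexpression array. The ratio and the group can thus not be told apart well, and differences fitted with both rest on extrapolation. With that ratio as a covariate the differences were 2.54 for the brighter C1S probe set, 1.40 for C1R and 1.62 for CFB, against 1.30, 0.77 and 0.73 without it. For the other C1S probe set it was 1.92 against 1.37, no longer called. Members called went from 4 to 10, while the share called over all probe sets went from 3.23% to 2.54%.

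The calls moved with single arrays, for the members as over the whole array. When any one of overexpression replicates 1, 2 and 3 or negative replicates 1 and 2 was left out, 0 of the 19 member probe sets were called in limma, with 9 to 12 at an unadjusted p under 0.05. In those 5 fits 0.59% to 1.70% of all probe sets were called, and 15.3% to 18.5% had an unadjusted p under 0.05. Without negative replicate 3, 9 members and 4.33% of all probe sets were called. Of these 8 were higher with CT45A1 and 1, for CD59, was lower. The C1S difference at its brighter probe set was 0.97 without negative replicate 2 and 1.72 without negative replicate 3. Its direction, and that of C1R, CFI, CFB, C3 and CD55, was the same in all settings run.

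**Figure D4:**
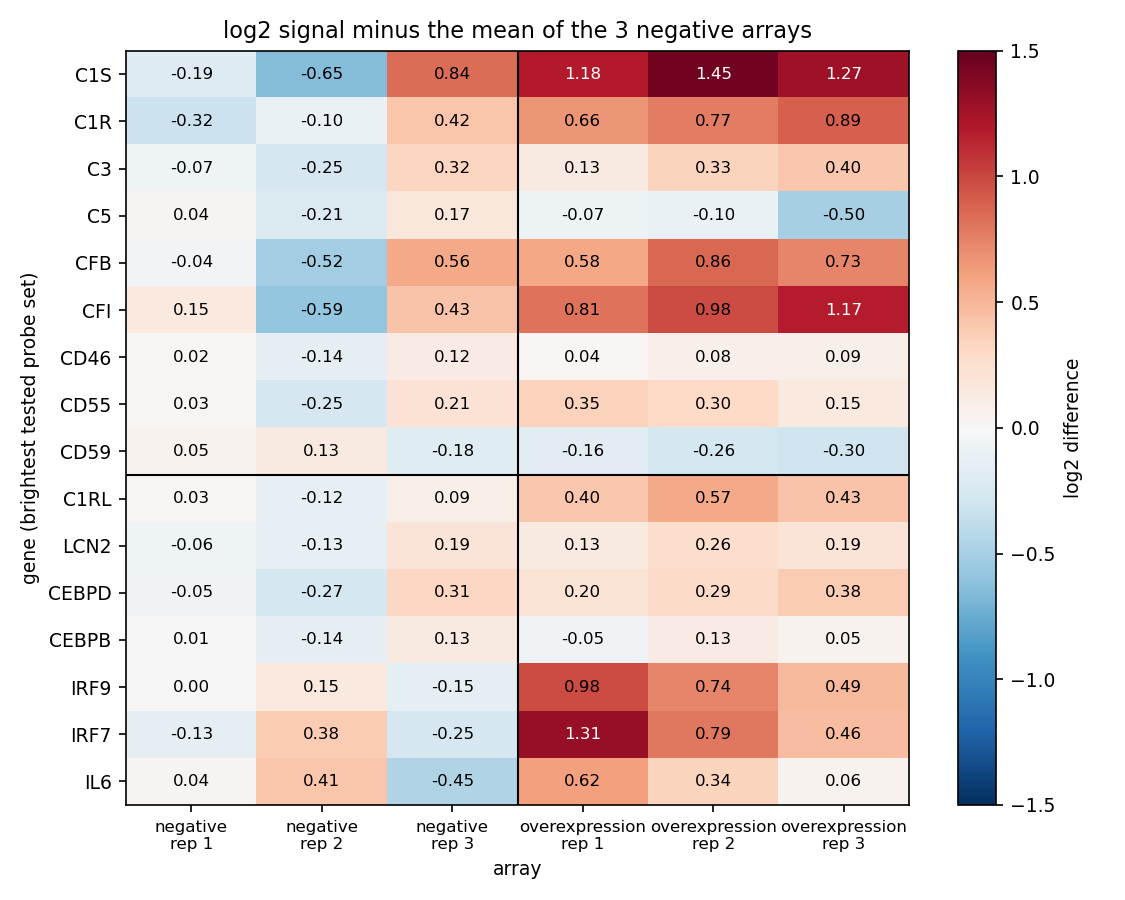
log2 signal minus the mean of the 3 negative arrays, for each array (columns) and gene (rows, brightest tested probe set); red is above and blue below that mean, and the horizontal line parts the 9 chosen genes from 7 others. C1S is at -0.19, -0.65 and 0.84 on negative replicates 1, 2 and 3 and at 1.18 to 1.45 on the overexpression arrays, while IRF9, IRF7 and IL6 are lowest on negative replicate 3.

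The other genes of the cascade were mostly too dim. Of 53 further complement genes listed, 46 had a probe set of their own and 8 entered the fit. In limma 1 of these 8 rose (C1RL) and 0 fell, where 3.23% of all probe sets were called. At an unadjusted p under 0.05 there were 1 upward and 1 downward, and 20.7% of all probe sets passed that mark. The downward one was THBD, thrombomodulin, an endothelial anticoagulant that also dampens complement. THBD gave signals of 332, 354 and 335 against 486, 395 and 512, with no overlap, and differed by -0.44 (SE 0.13, limma adjusted p = 0.102). Its other probe set differed by -0.12 (SE 0.24). CFD, the protease that activates factor B, differed by 0.33 (SE 0.29), and CLU, a fluid-phase inhibitor of the terminal complex, by 0.04 (SE 0.22). C4BPA, which binds C4b, differed by -0.68 (SE 0.68), with 1 overexpression array at 15.7 and the rest of both groups at 56.4 to 111. Among receptors, ITGAM and ITGB2, the subunits of complement receptor 3, each differed by 0.04 (SE 0.43 and 0.35). C1QBP, a mitochondrial protein that can bind C1q, differed by -0.11 (SE 0.06). Both C4 genes are annotated only to shared probe sets and were not named from them.

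CD55 and CD59 need a glycosylphosphatidylinositol anchor, which the PIG proteins assemble in the endoplasmic reticulum. Of 27 such genes tested, 1 rose and 0 fell in limma, with 3 upward and 2 downward at an unadjusted p under 0.05, near the shares of 3.23% and 20.7% over all probe sets. The list's median difference was -0.01. The gene was PIGO, an ethanolamine phosphate transferase of the pathway, with signals of 854, 956 and 752 against 632, 565 and 581. PIGO rose by 0.52 (SE 0.11, limma adjusted p = 0.0380), with groups that did not overlap, and its other probe set differed by 0.55 (SE 0.20). As this list was drawn up with results of these data known, the p is no independent test. PIGO passed in 5 of 16 alternative settings, with limma adjusted p from 0.0304 to 0.300. Only leaving out overexpression replicate 3, of the 6 arrays, kept the call (limma adjusted p = 0.0397).

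Of 16 tested factors and receptors known to induce complement genes, 1 rose and 0 fell in limma, with 3 upward and 1 downward at an unadjusted p under 0.05, where all probe sets gave 3.23% and 20.7%. The gene that rose was IRF9, the DNA-binding subunit of the interferon-activated complex ISGF3. Its signals were 1151, 974 and 821 with CT45A1 and 586, 648 and 528 without it. IRF9 rose by 0.73 (SE 0.13, limma adjusted p = 0.0215). This list was drawn up with results of these data known, so that p is no independent test. With the actin ratio as a covariate it differed by 0.30 (limma adjusted p = 0.443), and over 16 settings the adjusted p ranged from 0.00870 to 0.443. Leaving out overexpression replicate 1 or 2 or negative replicate 1 ended the call, with limma adjusted p of 0.0766, 0.0928 and 0.0698. IRF7, not called, had a larger difference of 0.85 (SE 0.24, limma adjusted p = 0.0833), with groups that did not overlap. The others with an unadjusted p under 0.05 in limma were RELA, at 0.21 (SE 0.07), and IL6ST, at -0.16 (SE 0.05). Among the 3 acute-phase genes tested 0 were called in limma and 1, LCN2, had an unadjusted p under 0.05. LCN2, an iron-sequestering protein of inflamed epithelium, gave 18928, 20634 and 19647 against 16490.2, 15797 and 19665, a difference of 0.19 (SE 0.08, limma adjusted p = 0.206).

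The order of the negative arrays differed among these genes, which were singled out after their values were seen. LCN2 and the factors CEBPB and CEBPD, which drive acute-phase genes, were lowest on negative replicate 2 and highest on replicate 3, as C1S, C3 and CFB were. CEBPD gave 825, 709 and 1059 on the negative arrays. IRF9, IRF7 and the cytokine IL6 had the opposite order, and IL6 gave 2269, 2932 and 1611. Of the other tested factors and receptors, STAT3, NFKB1 and IFNGR1 had the C1S order, IL6ST, IFNAR1 and IFNAR2 the opposite one, and the rest neither. Over all probe sets these orders were found in 18.4% and 17.8%, so the split is a description.

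Over the 6 arrays, the genes whose log2 profile was most like that of the brighter C1S probe set, among 11886 genes compared by Pearson's r, were CDKN1B (r = 0.994), ACP3 (0.993), ZNF649 (0.992), PCSK7 (0.992) and PSAP (0.992). CDKN1B encodes a cell cycle inhibitor, PCSK7 a proprotein convertase and PSAP the precursor of lysosomal saposins. Their own differences were 0.26, 0.84, 0.44, 0.36 and 0.28, and none was called. These 6 points fall in 2 groups and share their arrays, so the likeness is a description.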

How the data were processed

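RNA of 6 NCI-H292 samples had been hybridised to 1 array each. The deposited intensity values are linear MAS5 signals, and the submitters' processing notes name MAS5 and affy. No version was stated in the labels. Every array had a mean of 500.1 after trimming 2% at each end. Detection calls were not used here, so a signal below the array median was treated as dim.

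Signals were taken to log2 without offset. The 62 control probe sets were left out, and those brighter than their array's median on 3 or more arrays were fitted with limma (lmFit, eBayes with trend = TRUE), adjusted by Benjamini-Hochberg over all of them, two-sided, with 0.05 as the threshold. Intervals are 95% intervals from limma and errors are its standard errors. Both are drawn toward a variance trend over all fitted probe sets, so they can be narrower than a probe set's own arrays would give. The number of arrays limits precision. Symbols came from the platform's annotation, updated through RefSeq. Genes other than the 9 are given by their brightest kept probe set. Named genes were all probe sets of the 9, then up to 4 called genes per list, or up to 2 with the smallest p where none was called, and the 5 genes most like C1S. ITGAM, ITGB2, IRF7, IL6, CEBPB, CEBPD and the neighbouring genes off the lists fall outside this rule and were chosen after their values were seen. The same holds for STAT3, NFKB1, IFNGR1, IL6ST, IFNAR1 and IFNAR2. The members and lists were chosen with earlier results of these data known. Alternatives were other normalizations, filters, variance models, an offset of 32, the replicate number as a block, the actin ratio as a covariate and leaving out each array. Correlations of same-numbered arrays' deviations were -0.01, -0.01 and 0.10, so the numbers were not taken as pairs. Versions were R 4.3.3, limma 3.58.1 and Python 3.11.15.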

Additional observations from a re-analysis of the deposited data

How the results depend on the processing

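The number of called member probe sets, 4 of 19, was 7 after centring each array on its median (5 higher and 2 lower), 10 with the actin ratio as a covariate (7 and 3), 0 with dim probe sets kept, 0 without the variance trend and 1 of 8 tested without those ending in _x_at or _s_at. The lower calls after centring and with the actin ratio were all CD59 probe sets. The unadjusted p was under 0.05 for 12 member probe sets without a filter and for 8 without the trend. The called count ranged from 0 to 9, and the unadjusted one from 9 to 14, with 1 array left out. The called count was within 1.5 times the main count under quantile and cyclic loess normalization, robust eBayes and the offset. The same held for the 75th percentile filter and the replicate block (5). The probe sets called changed: C1S at 208747_s_at lost its call under robust eBayes, and C1R under quantile and cyclic loess normalization. Of the settings that tested it, C1S was called in 8 of 16 at 208747_s_at and in 7 of 15 at 1555229_a_at. C1R was called in 7 of 16 and CD55 at 201926_s_at in 9 of 16. With the 75th percentile filter CD46 at 207549_x_at was called and C1S at 1555229_a_at was not tested. The count of other complement genes, 1, was 0 after quantile or cyclic loess normalization, without a filter, without the trend, with the replicate block, with the actin ratio and with probe sets averaged per gene, and 2 (THBD and C1QBP) after centring. It ranged from 0 to 1 with 1 array left out. Over all probe sets 892 were called, against 2975 after centring, 486 without a filter, 4 without the trend, 1189 with the replicate block and 159 to 1171 with 1 array left out. Centring moved the median difference of all probe sets from 0.03 to -0.11 and the calls from 522 higher and 370 lower to 387 higher and 2588 lower, and the cause was not tested. CD46 at 208783_s_at was -0.075 after centring and ranged from -0.00044 to 0.13 with 1 array left out. CD59 at 212463_at was -0.13 after centring, -0.27 with the actin ratio and -0.054 to 0.090 with 1 array left out, and CD59 at 228748_at ranged from -0.62 to 0.078. The actin ratio was higher on all negative arrays than on all overexpression arrays. Its fit thus leans on few arrays and cannot tell the ratio and the group apart well.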
